A study of Mus musculus with 6 samples.

Results

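The genes described here are 9 known targets of the hypoxia-inducible factors (HIFs) outside glycolysis: P4ha1, P4ha2, Bnip3, Bnip3l, Ddit4, Ankrd37, Car9, Ndrg1 and Pdk1. Their probe sets were found by platform gene symbol, the list itself having been drawn up with earlier results of these data known, and each was measured by 1 probe set, so that 9 of the 24704 genes on the arrays are covered. RNA came from whole mouse lung, and every animal had been kept in hypoxia for 7 days. The knockout group, Nfat5(EC)-/-, lacked the osmosensitive transcription factor NFAT5 in endothelial cells after intraperitoneal tamoxifen, 1 mg daily on 5 days, given to males and females at 10 to 12 weeks of age. The control group, Nfat5fl/fl, carried the floxed gene and received the solvent miglyol, so genotype and tamoxifen differ between the groups together. Animals rested for 2 to 3 weeks after the injections, and the lungs were perfused with cold Ringer solution. Which promoter drives the recombinase was not given in the sources. Each group held 3 arrays, numbered 1, 3 and 4, of 4 mice per group in the stated design. The submitters left out lung preparations whose expression response to hypoxia was inadequate, without naming the genes used. The arrays may therefore have been selected in part on genes of this kind, and since no normoxic array was analysed here, the values measure no induction by hypoxia. P-values below rest on the spread between these arrays.

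HIFs are pairs of a labile alpha subunit, Hif1a or Epas1, and the stable partner Arnt. When oxygen is plentiful, prolyl hydroxylases mark the alpha subunit for destruction through VHL, and in hypoxia the pair accumulates and binds short DNA elements with the core ACGTG or GCGTG. Its targets change matrix assembly (P4ha1, P4ha2), mitochondrial turnover (Bnip3, Bnip3l), growth signalling (Ddit4), pyruvate use (Pdk1) and acid handling (Car9). In the lung, chronic hypoxia is known for remodelling of the pulmonary vessel wall, to which endothelial HIF activity contributes.

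The groups differed widely, and the members are read against that background. Of all genes 25.5% passed an adjusted p of 0.05 in limma, 12.5% higher and 13.0% lower in the knockout. Among genes with a mean level above the median of all genes, where 8 of the 9 members lie, the share was 43.2%. Nfat5 stood at 6.30 to 6.65 on control arrays and 3.89 to 4.48 on knockout arrays (log2). The median of 106 snoRNAs stood at 4.01 to 4.20 in controls and 6.43 to 7.43 in knockouts, and Xist read 2.03 to 2.37 everywhere but on control replicate 1, where it read 8.22. The sex of each animal was not given. Read by Xist, a transcript of female cells, control replicate 1 alone would be female. Sex would then not be balanced between the groups, and its part was not tested. Of 9 lung epithelial markers 1 was higher (Foxj1) and 2 were lower (Sftpa1 and Cldn18), with a summed level of 13.9 to 14.0 on control arrays against 13.2 to 13.8 (log2 of the sum). Of 10 endothelial markers 3 were higher and 5 lower, and their summed level lay at 11.6 to 11.9 in controls and 10.9 to 11.1 in knockouts (log2 of the sum). Of 8 smooth muscle and pericyte markers 2 were higher and 0 lower (summed 8.89 to 9.52 against 9.57 to 9.85). Of 5 adipose markers 2 were lower and 0 higher (6.74 to 8.28 against 5.66 to 6.03). Of 8 thymus markers, a tissue the submitters watched for, 2 were higher and 1 lower (5.49 to 5.98 against 5.89 to 6.28). Skeletal and cardiac muscle markers, 8 in number, gave 2 higher and 0 lower (7.91 to 9.39 against 8.50 to 9.67). Among the controls their sum was highest on replicate 4. Erythroid markers gave 0 calls of 5 (6.20 to 7.19 against 5.93 to 7.60). The values carry no detection calls. The part of these shifts in the results below was not tested, and in whole lung fewer cells of a type and less RNA per cell cannot be told apart.

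Hypoxia-inducible effector genes changed in both directions in the knockout lungs. P4ha1, Bnip3, Bnip3l and Pdk1 fell, P4ha2 and Ddit4 rose, and Ankrd37, Car9 and Ndrg1 did not pass. That is 6 of 9 genes past the threshold (2 higher, 4 lower), against 25.5% of all genes and 43.2% of the brighter ones. The median log2 fold change of the 9 was −0.28, against 0.04 over all genes. The groups did not overlap for 7 of the 9, with the knockouts above for 3 and below for 4. The same held for 41.9% of all genes, 21.9% above and 20.0% below. Called changes were moderate, from 1.55-fold to 2.31-fold, and their adjusted p-values lay between 0.017 and 0.045. The count rested on each control array: it was 1 without control replicate 1, 0 without control replicate 3 and 1 without control replicate 4, and without knockout replicate 4 it was 3. Leaving out those control arrays also lowered the share of all genes called, to 12.7%, 11.7% and 18.0%. Without knockout replicate 4 that share was 23%. In each of the 3 control fits limma gave 6 members an unadjusted p under 0.05. With all arrays it also gave 6, and 9264 of all 24704 genes had such a p. The share of all genes in the 3 control fits was not computed, so those counts cannot be set against it. With the level of Xist as a covariate Bnip3 alone was called, and with limma's intensity trend and robust prior P4ha1, Bnip3 and Ddit4 were. Of all genes these 2 models called 11.4% and 24.4%. Xist was high on control replicate 1 alone, so the first of these models nearly repeats the fit without that array. The 6 genes kept their sign in all 18 settings, which changed the filter, the scaling, the model or the arrays at the same threshold. This was largely fixed in advance, because the filters, the replicate block and limma's trend leave their fold changes as they are. Where the groups do not overlap, as for these 6, leaving out 1 array cannot change the sign.

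**Figure D1:**
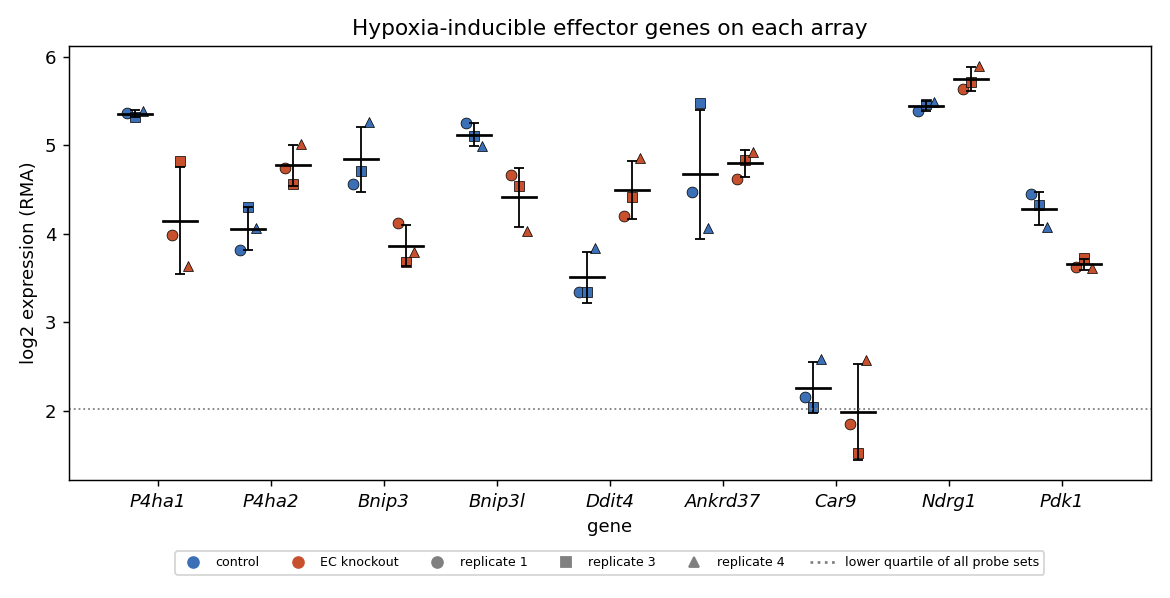
Log2 expression (RMA, y axis) of the 9 genes on the 3 control arrays (blue) and 3 EC knockout arrays (red), with replicate numbers as symbols, the mean as a horizontal line and the SD as the error bar; the dotted line is the lower quartile of all probe sets (2.02). Knockout arrays lie below all control arrays for P4ha1, Bnip3, Bnip3l and Pdk1 and above them for P4ha2, Ddit4 and Ndrg1, while Car9 lies near the dotted line in both groups.

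**Figure D2:**
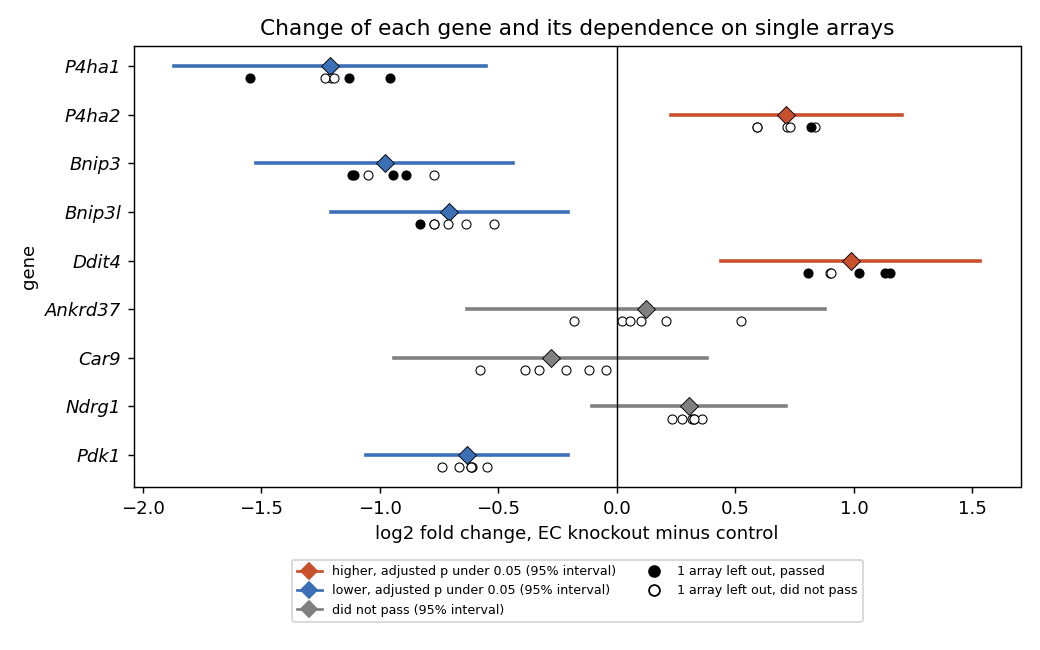
Log2 fold change, EC knockout minus control (x axis), of the 9 genes (y axis) with 95% intervals from limma; circles show the value with 1 array left out, filled where the adjusted p stayed under 0.05. The intervals of P4ha1 (−1.87 to −0.55) and Ddit4 (0.44 to 1.53) exclude 0, and no circle of Pdk1 is filled.

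The HIF core sequence was looked for in the RefSeq promoter windows (GRCm38.p6; 250 bases before the start to 50 from it) of the members, because binding to it defines these genes as HIF targets. Windows were found for 7 of the 9 genes, with 2 for Pdk1; Bnip3l and Ndrg1 had none in the table. ACGTG or GCGTG, on either strand, occurred in at least 1 window of each of the 7 genes, and in 43.8% of all 32851 windows. ACGTG alone was present in 6 of the 7, with Pdk1 the exception, and in 19.6% of all windows. Members are counted by gene and the background by window. Because the members were chosen as known HIF targets, these shares are given for scale and test no enrichment. For each gene the ACGTG nearest the start, or for Pdk1 the GCGTG, is shown with 16 bases on each side, 5′ to 3′ on the gene's strand. Capitals mark the core, as CACGT where it lies on the opposite strand.
P4ha1 core, chr10:59323264-59323300 (+): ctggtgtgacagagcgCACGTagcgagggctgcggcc
P4ha2 core, chr11:54100918-54100954 (+): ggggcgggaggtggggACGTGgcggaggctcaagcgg
Bnip3 core, chr7:138909593-138909629 (-): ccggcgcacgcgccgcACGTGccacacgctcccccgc
Ddit4 core, chr10:59951937-59951973 (-): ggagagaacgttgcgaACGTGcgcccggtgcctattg
Ankrd37 core, chr8:45999836-45999872 (-): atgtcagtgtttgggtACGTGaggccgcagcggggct
Car9 core, chr4:43506992-43507028 (+): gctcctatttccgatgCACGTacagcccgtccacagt
Pdk1 core, chr2:71873206-71873242 (+): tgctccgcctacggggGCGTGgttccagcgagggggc
Genes that fell (P4ha1, Bnip3, Pdk1), genes that rose (P4ha2, Ddit4) and genes that did not pass (Ankrd37, Car9) all carry a core. In Bnip3 the base before the capitals completes the palindrome CACGTG, which holds the core on both strands and occurs in 7.15% of all windows. The start used by the table lies inside the annotated gene by 99 bases for P4ha1, 564 for Ankrd37 and 9 for Pdk1, and at its outer end for the others. The other Pdk1 window starts 1689 bases inside the gene and holds 0 matches. A match is a description of the letters, and the arrays measured no binding.

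P4ha1 and P4ha2 encode alternative catalytic subunits of collagen prolyl 4-hydroxylase, the enzyme that hydroxylates proline so that the collagen triple helix is stable. They moved in opposite directions. P4ha1 (Entrez 18451, chr10:59323197-59373304) had log2 levels of 5.37, 5.32 and 5.39 in controls (replicates 1, 3 and 4, the order used throughout) and of 3.99, 4.82 and 3.64 in knockouts. The controls lay within 0.1 of each other, while the knockouts spread widely and replicate 3 was nearest to the controls. The mean dropped from 5.36 ± 0.037 to 4.15 ± 0.61 (SD, n = 3 each), a 2.31-fold fall (log2 fold change −1.21 ± 0.29 SE; limma, adjusted p = 0.017). Its adjusted p was 0.064, 0.061 and 0.054 without control replicates 1, 3 and 4.

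P4ha2 (Entrez 18452, chr11:54100924-54131668) stood at 3.82, 4.30 and 4.06 in controls and at 4.74, 4.56 and 5.02 in knockouts. Every knockout array lay above every control array. The mean rose from 4.06 ± 0.24 to 4.77 ± 0.23 (SD, n = 3 each), or 1.64-fold (log2 fold change 0.71 ± 0.22 SE; limma, adjusted p = 0.039). The call was lost without control replicate 1 (0.15), 3 (0.066) or 4 (0.099) and without knockout replicate 1 (0.057) or 4 (0.092), and with array weights (0.056), all adjusted p. Within each array, the log2 difference P4ha1 minus P4ha2 was 1.55, 1.02 and 1.33 in controls and −0.75, 0.26 and −1.38 in knockouts. It changed by −1.93, and the exact two-sided permutation p of 0.1 is the smallest that 3 against 3 arrays can give (0.3 adjusted over the 3 pairs of related genes compared).

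The 2 promoter windows are shown whole, since these related genes moved apart, with every ACGTG or GCGTG on either strand in capitals. P4ha1 holds 3 matches and P4ha2 holds 4.
P4ha1 promoter, chr10:59323046-59323345 (+): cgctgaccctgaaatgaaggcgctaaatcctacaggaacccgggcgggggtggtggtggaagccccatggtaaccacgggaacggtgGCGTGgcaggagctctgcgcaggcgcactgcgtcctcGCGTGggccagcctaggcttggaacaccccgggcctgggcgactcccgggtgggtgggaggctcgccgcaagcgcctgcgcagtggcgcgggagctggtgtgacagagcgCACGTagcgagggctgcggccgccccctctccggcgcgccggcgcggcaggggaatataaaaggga
P4ha2 promoter, chr11:54100674-54100973 (+): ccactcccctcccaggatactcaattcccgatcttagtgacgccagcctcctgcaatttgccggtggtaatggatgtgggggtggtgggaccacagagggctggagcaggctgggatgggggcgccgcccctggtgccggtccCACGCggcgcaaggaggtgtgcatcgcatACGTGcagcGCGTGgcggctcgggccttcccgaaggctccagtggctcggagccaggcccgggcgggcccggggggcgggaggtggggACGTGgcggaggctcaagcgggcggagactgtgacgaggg
Of all windows 8.93% hold 3 or more matches.

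**Figure D3:**
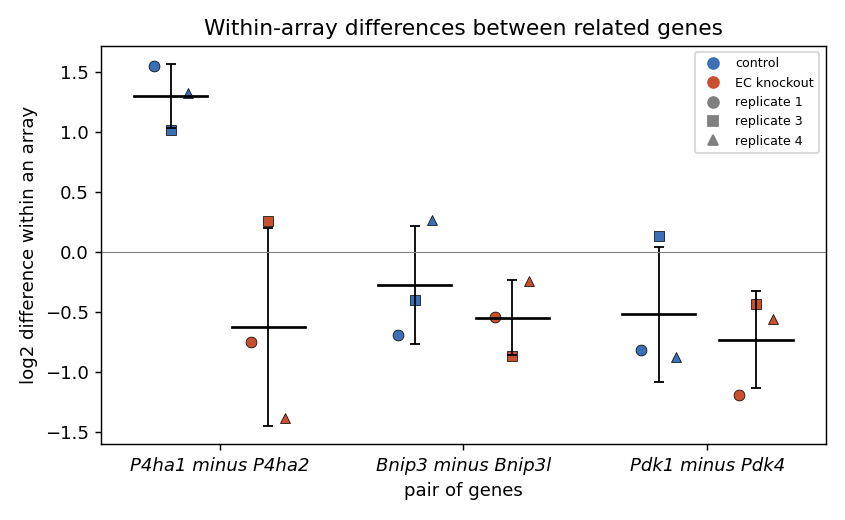
Log2 difference between related genes within each array (y axis) for 3 pairs (x axis), with control arrays in blue, EC knockout arrays in red, the mean as a line and the SD as the error bar. The groups separate for P4ha1 minus P4ha2 (controls 1.02 to 1.55, knockouts −1.38 to 0.26) and overlap for the pairs Bnip3 minus Bnip3l and Pdk1 minus Pdk4.

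Among 14 other genes of collagen hydroxylation and folding 6 rose, 2 fell and 6 did not pass, and the median log2 fold change was 0.40. Counts of this and the following lists stand against 25.5% of all genes called and 43.2% of the brighter ones. Of 6 fibroblast markers 2 were higher and 1 lower, with a summed level of 9.49 to 9.54 in controls and 9.50 to 9.79 in knockouts, and their part in this was not tested. Plod3, a lysyl hydroxylase that also glycosylates collagen, rose by 1.25 ± 0.22, and Serpinh1, the collagen chaperone of the endoplasmic reticulum, by 1.21 ± 0.20 (log2, SE; limma, adjusted p = 0.0054 and 0.0040). P3h4 rose by 1.07 ± 0.24 and Colgalt1, a collagen galactosyltransferase, by 0.96 ± 0.21 (adjusted p = 0.012 each). The prolyl 3-hydroxylases P3h1 and P3h3 also rose. The 2 lower genes were Plod2, another lysyl hydroxylase and HIF target, and Colgalt2. The third catalytic subunit P4ha3 did not pass (0.20 ± 0.21, adjusted p = 0.56), nor did P4hb, the shared beta subunit (0.051 ± 0.22, adjusted p = 0.90). The called genes numbered 2, 4 and 6 without control replicates 1, 3 and 4, none of them lower, and with the trend in gene length removed 6 were higher and 0 lower. Plod3 and Serpinh1 kept their calls in all 18 settings tried.

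Bnip3 and Bnip3l (also called NIX) encode related proteins of the outer mitochondrial membrane that recruit the autophagy machinery to mitochondria. Both fell. Bnip3 (Entrez 12176, chr7:138890836-138909506) stood at 4.57, 4.71 and 5.26 in controls and at 4.12, 3.68 and 3.79 in knockouts. Control replicate 4 was the highest array, and all knockouts lay below all controls. From 4.84 ± 0.37 the mean went down to 3.86 ± 0.23 (SD, n = 3 each), a 1.97-fold fall (log2 fold change −0.98 ± 0.24 SE; limma, adjusted p = 0.018). Without control replicate 3 the adjusted p was 0.055 and without control replicate 4 it was 0.061.

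Bnip3l (Entrez 12177, chr14:66985238-67008877) stood at 5.26, 5.11 and 5.00 in controls and at 4.66, 4.55 and 4.03 in knockouts. The groups did not overlap, and knockout replicate 4 was the lowest. The mean fell from 5.12 ± 0.13 to 4.41 ± 0.34 (SD, n = 3 each), or 1.63-fold (log2 fold change −0.71 ± 0.22 SE; limma, adjusted p = 0.045). This was the weakest call among the 6. It was lost without control replicate 1 (0.15), 3 (0.13) or 4 (0.083) and without knockout replicate 3 (0.059) or 4 (0.10), with arrays centred on protein-coding genes (0.057) and with the length trend removed (0.054), all adjusted p. Whether the 2 genes fell unequally could not be shown: Bnip3 minus Bnip3l changed by −0.27 (exact two-sided permutation p = 0.5, 0.7 adjusted over the 3 pairs), and the groups overlapped.

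Among 16 other mitophagy genes 4 rose, 1 fell and 11 did not pass, and the median was 0.18. That share is near the 25.5% of all genes called and below the 43.2% of brighter genes, to which 15 of the 16 belong. Fkbp8, another mitophagy receptor, rose by 1.75 ± 0.20 (adjusted p = 0.0018) and Map1lc3a, a member of the LC3 family that coats autophagosomes, by 1.47 ± 0.23 (0.0037). Ulk1, the kinase that starts autophagy, rose by 1.03 ± 0.24 (0.015), and the cargo receptor Sqstm1 also rose. Atg5, needed to lipidate LC3, was the lower gene. Fundc1, a receptor of hypoxic mitophagy, did not pass (−0.94 ± 0.40, adjusted p = 0.12), and Map1lc3b did not either (−0.18 ± 0.25, adjusted p = 0.67). Leaving out control replicate 1 or 3 left 2 calls each time, both higher. The 4 higher genes span from 1.71 kb (Map1lc3a) to 25.6 kb (Ulk1), and Atg5 spans 96.0 kb. With the trend in gene length removed, 5 were higher and 1 lower. Fkbp8 and Map1lc3a were called in all 18 settings.

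Ddit4 (also called REDD1) is a stress-induced inhibitor of the growth kinase complex mTORC1. Ddit4 (Entrez 74747, chr10:59949675-59951770) rose. It stood at 3.34, 3.34 and 3.84 in controls and at 4.21, 4.42 and 4.85 in knockouts. Control replicate 4 was the highest of the controls, and no control reached a knockout. The mean went from 3.51 ± 0.29 to 4.49 ± 0.33 (SD, n = 3 each), a 1.98-fold rise (log2 fold change 0.99 ± 0.24 SE; limma, adjusted p = 0.018). Its adjusted p was 0.079 without control replicate 1 and 0.081 without control replicate 3.

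Among 15 genes that signal to or form mTORC1 3 rose, 6 fell and 6 did not pass, and the median was −0.25. Akt1s1, which encodes the mTORC1 inhibitor PRAS40, rose by 1.58 ± 0.20 (limma, adjusted p = 0.0022), as did the stress inhibitor Sesn2 and Tsc2, through which DDIT4 acts. Deptor, another mTOR inhibitor, fell (−1.49 ± 0.21, adjusted p = 0.0027). The AMP kinase subunit Prkaa1 fell (−1.50 ± 0.24, 0.0039), and so did the metabolic stress protein Txnip (adjusted p = 0.0065), Rheb, Prkaa2 and Sesn3. The paralogue Ddit4l did not pass (0.58 ± 0.21, adjusted p = 0.076), and Mtor itself stood at −0.024 ± 0.23 (adjusted p = 0.95). Calls numbered 4, 4 and 5 without control replicates 1, 3 and 4, and 6 without knockout replicate 4. The 6 lower genes span from 3.90 kb (Txnip) to 147 kb (Deptor), and the 3 higher ones from 6.20 kb (Akt1s1) to 36.9 kb (Tsc2). With the trend in gene length removed, 3 were higher and 4 lower. Akt1s1, Deptor, Prkaa1 and Txnip held in all 18 settings.

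Pdk1 encodes a kinase that inactivates pyruvate dehydrogenase and so keeps pyruvate out of the mitochondrial cycle. Pdk1 (Entrez 228026, chr2:71873215-71903858) fell. It stood at 4.45, 4.33 and 4.08 in controls and at 3.62, 3.72 and 3.62 in knockouts. The knockouts were tightly grouped below the lowest control, replicate 4. Means of 4.29 ± 0.19 and 3.65 ± 0.061 (SD, n = 3 each) gave a 1.55-fold fall (log2 fold change −0.63 ± 0.19 SE; limma, adjusted p = 0.038). This call depended on every array: the adjusted p was 0.14, 0.13 and 0.051 without control replicates 1, 3 and 4, and 0.063, 0.057 and 0.069 without knockout replicates 1, 3 and 4. It was 0.070 with the length trend removed.

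Among 11 genes of the pyruvate dehydrogenase complex and its regulators 5 fell, 1 rose and 5 did not pass (median −0.54). Pdha1, the catalytic subunit that PDK1 phosphorylates, stood at −1.11 ± 0.19 (limma, adjusted p = 0.0047) and Dld, the shared E3 subunit, at −1.30 ± 0.27 (0.0092). The phosphatase subunits Pdp1 (−0.79 ± 0.19, 0.017) and Pdpr fell as well. Of the paralogues, Pdk3 fell (−1.02 ± 0.20, adjusted p = 0.0075) and Pdk2 rose (0.96 ± 0.25, 0.024). Pdk4, the kinase induced by fasting, did not pass (−0.42 ± 0.31, 0.37), and Pdk1 minus Pdk4 changed by −0.21 (exact two-sided permutation p = 0.7, also 0.7 adjusted over the 3 pairs), which does not show that they changed alike. That difference was 0.11 without control replicate 3, 0.019 without knockout replicate 1 and 0.058 with the length trend removed. This list had 3 and 4 calls without control replicates 1 and 3, all lower. Pdha1 and Pdk3 held in all 18 settings. Pdk2 was not called without control replicate 1 or 3 or knockout replicate 4, nor Pdp1 without control replicate 1 (highest adjusted p over the settings 0.11 and 0.089).

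Ankrd37, Car9 and Ndrg1 did not pass in any of the settings tried. Ankrd37 (Entrez 654824, chr8:45996908-46000414), an ankyrin repeat protein, stood at 4.47, 5.48 and 4.07 in controls and at 4.62, 4.83 and 4.93 in knockouts. Control replicate 3 was the highest array and control replicate 4 the lowest, so the controls enclosed all knockouts. The means were 4.67 ± 0.73 and 4.80 ± 0.16 (SD, n = 3 each), and the log2 fold change of 0.12 had a 95% interval of −0.63 to 0.88 (limma, adjusted p = 0.83). That value was 0.53 without control replicate 3 and −0.18 without control replicate 4.

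Car9 (Entrez 230099, chr4:43507026-43513729) encodes a carbonic anhydrase on the cell surface that exports acid from hypoxic cells. It stood at 2.16, 2.04 and 2.58 in controls and at 1.85, 1.52 and 2.58 in knockouts, close to or below the arrays' lower quartile of 2.02. Replicate 4 was the highest array of each group, and the groups overlapped. The log2 fold change was −0.28, with a 95% interval of −0.94 to 0.38 (limma, adjusted p = 0.54). The files do not say whether the probe set was above background.

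Among 15 other carbonic anhydrases 2 rose and 1 fell, and the median was 0.16. Car2, the abundant cytosolic enzyme, fell (−1.13 ± 0.27, limma adjusted p = 0.017), and Car11 (0.80 ± 0.20, 0.018) and Car4, a marker of lung capillary cells (0.63 ± 0.20, 0.047), rose. Car4 was also the 1 higher gene among 6 alveolar macrophage markers, of which 1 was lower. Car3 had the lowest value of the list and did not pass (−2.04 ± 0.71, limma, adjusted p = 0.064), though all knockouts lay below all controls. Car12, also a HIF target, did not pass either (−0.11 ± 0.24, 0.79). In limma 0 were called without control replicate 1, 3 or 4 (4, 6 and 6 at an unadjusted p under 0.05). With all arrays that unadjusted cut held 8 of the list and 9264 of all 24704 genes. The list had 5 and 2 calls without knockout replicates 1 and 3.

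Ndrg1 (Entrez 17988, chr15:66929318-66969641), a stress-response gene of differentiated cells, stood at 5.39, 5.47 and 5.49 in controls and at 5.64, 5.71 and 5.90 in knockouts. All knockouts lay above all controls, by little. The means were 5.45 ± 0.053 and 5.75 ± 0.13 (SD, n = 3 each), and the log2 fold change of 0.31 had a 95% interval of −0.10 to 0.72 (limma, adjusted p = 0.26). Among its paralogues Ndrg2 (0.34 ± 0.28), Ndrg3 (−0.64 ± 0.25) and Ndrg4 (0.25 ± 0.24), 0 of 3 passed in limma. An unadjusted p under 0.05 was found for 1, Ndrg3, as for 9264 of all 24704 genes. Ndrg3 was called without knockout replicate 3.

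Of 13 genes that control HIF activity 5 fell and 2 rose, and the list's median was −0.53. The alpha subunits Hif1a and Epas1 and their partner Arnt fell, Hif1a by 1.42 ± 0.31, Epas1 by 0.99 ± 0.21 and Arnt by 1.01 ± 0.26 on the log2 scale (SE; limma, adjusted p = 0.012, 0.011 and 0.021). A further alpha subunit, Hif3a, did not pass (0.41 ± 0.23, adjusted p = 0.24). The coactivators Ep300 (−1.92 ± 0.27, 0.0028) and Crebbp (−1.39 ± 0.27, 0.0070) fell too. Egln2, a prolyl hydroxylase that marks HIF alpha, rose by 1.58 ± 0.18 (0.0019), as did Arnt2 (0.65 ± 0.19, 0.034). The hydroxylases Egln1 (−0.19 ± 0.19, adjusted p = 0.53) and Egln3 (−0.57 ± 0.51, 0.47), themselves HIF targets, did not pass. Neither did Vhl (0.79 ± 0.29, limma, adjusted p = 0.077), Hif1an (−0.53 ± 0.23, 0.13) and Cited2 (−0.46 ± 0.24, 0.20). All knockouts lay above all controls for Vhl and below them for Hif1an. The 5 lower genes span from 46.2 kb (Hif1a) to 132.6 kb (Crebbp), and of the higher ones Egln2 spans 8.15 kb and Arnt2 165.5 kb. With the length trend removed, 4 of the list were lower and 2 higher. The list had 4 calls without control replicate 1 and 3 without control replicate 3. Arnt2 was not called without control replicate 1 or 3 or knockout replicate 1 or 3 (highest adjusted p over the settings 0.13). Hif1a was not called without control replicate 1 or 3, Epas1 without control replicate 3, and Arnt without control replicate 1, 3 or 4 (highest adjusted p over the settings 0.065, 0.056 and 0.085).

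Among 44 other textbook HIF targets 7 rose, 6 fell and 31 did not pass, and the median was −0.12. That share is near the 25.5% of all genes called and below the 43.2% of brighter genes, to which 39 of the 44 belong. Pfkl, a phosphofructokinase subunit, rose by 1.32 ± 0.20 (limma, adjusted p = 0.0032) and the histone demethylase Kdm4b by 1.35 ± 0.26 (0.0066). Kdm3a, another histone demethylase, fell (−1.25 ± 0.24, 0.0071), as did the lipoprotein receptor Vldlr (−1.53 ± 0.30, 0.0079). The lactate exporter Slc16a3, the respiratory chain subunits Cox4i2 and Ndufa4l2, Hk1 and Pkm were also higher, and Tfrc, Ero1a, Narf and Ldha lower. Vegfa did not pass (−0.49 ± 0.20, adjusted p = 0.11), nor did Slc2a1 (0.67 ± 0.25, 0.079) or Adm (−0.24 ± 0.27, 0.57). Gapdh, at means of 1.53 and 1.92, lay below the lower quartile of 2.02 in both groups and carries no detection call. Calls numbered 8 and 7 without control replicates 1 and 3. Pfkl, Kdm4b, Kdm3a and Vldlr were called in all 18 settings.

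**Figure D4:**
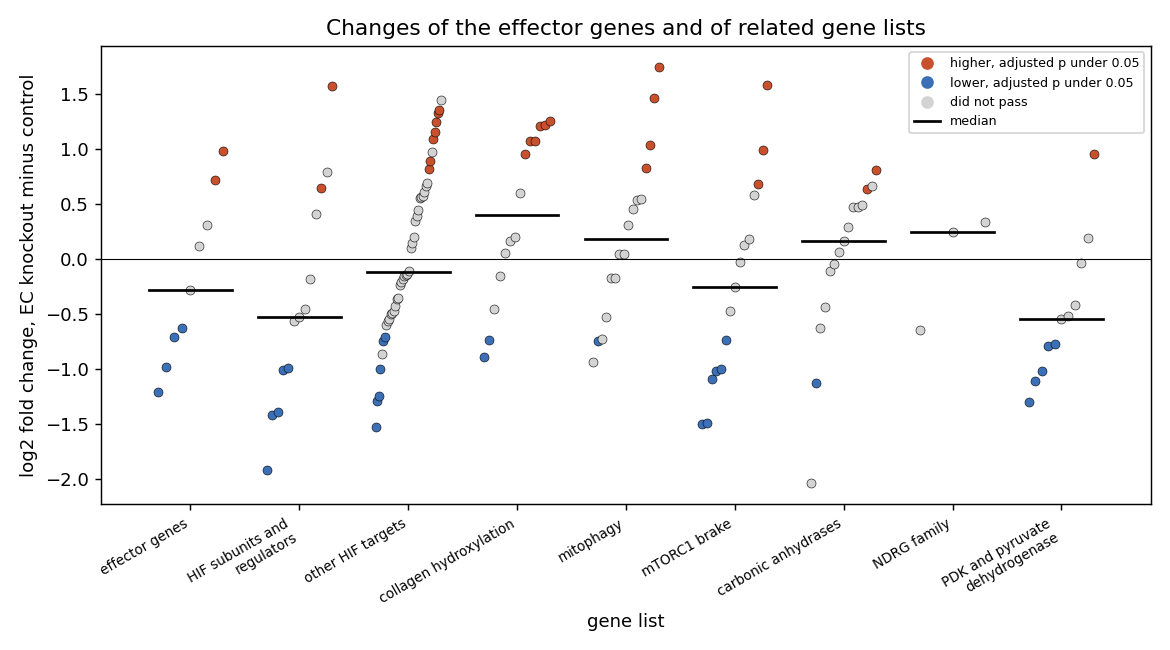
Log2 fold change, EC knockout minus control (y axis), of every measured gene in the 9 lists (x axis); colour shows genes past an adjusted p of 0.05 (red higher, blue lower, grey neither) and the line is each list's median. The effector genes (median −0.28) and other HIF targets (median −0.12) lie on both sides of 0, while collagen hydroxylation has its median at 0.40 and the pyruvate dehydrogenase list at −0.54.

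Gene length moved with the changes across the arrays. Protein-coding genes of 60.7 kb or more were lower at 31.4% and higher at 5.41%, and those up to 4.79 kb were lower at 2.26% and higher at 14.6%. Among the members, Ddit4 spans 2.10 kb and rose, and P4ha1, at 50.1 kb the longest, fell. At a similar length, P4ha2 (30.7 kb) rose and Pdk1 (30.6 kb) fell. Both lie in the range of 26.3 to 60.7 kb, where 10.4% of protein-coding genes were higher and 23.6% lower. The part of length in the members' changes was not tested. With the trend removed, P4ha1 stood at −0.96, P4ha2 at 0.83, Bnip3 at −1.04 and Ddit4 at 0.75 (limma, adjusted p = 0.033, 0.022, 0.015 and 0.044). In that fit 4 of the 9 were called, against 26.1% of the 19686 protein-coding genes tested. Bnip3l and Pdk1 lost their calls (limma, adjusted p = 0.054 and 0.070).

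Profiles across the 6 arrays were compared as a description, by the root mean square difference of log2 values centred per gene. Nearest to P4ha1 were Sulf1 (0.059) and Atad2 (0.064), and to P4ha2 Plcg2 (0.065) and Pdgfb (0.073). Nearest to Bnip3 were Pole (0.11) and D130040H23Rik (0.11), and to Bnip3l Ylpm1 (0.049) and Gdpd1 (0.059). Ddit4 was nearest to Tctn1 (0.058) and Stub1 (0.062), and Pdk1 to Dstn (0.045) and P2rx7 (0.047). Of these 12 genes Gdpd1 alone missed the threshold (limma, adjusted p = 0.067). That follows largely from the choice, since they were picked for profiles close to those of called genes.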

How the data were processed

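The authors deposited 1 log2 value for each probe set and array. RMA is the tool named in the submitters' processing notes, while its version, the probe set definition and the genome build were not given in the sources. All 6 arrays share a median of 2.98 and a lower quartile of 2.02. No depth applies to arrays, and their number limits the precision. Of 25428 probe sets, 723 were unnamed in the platform annotation; where a symbol had several probe sets the brighter was kept, leaving 24704 genes, of which 24672 matched RefSeq (GRCm38.p6) by Entrez identifier for biotype and span.

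Knockout and control arrays were compared with limma 3.58.1 in R 4.3.3 (lmFit, eBayes, two-sided), with Benjamini-Hochberg adjustment over all 24704 genes, a threshold of 0.05 and no filter. Fold changes are differences of log2 means. Pairs of related genes were compared within arrays by exact permutation. Named are all members, called genes of the lists (values for about 4 of smallest p), paralogues, genes singled out after their values were seen (P4hb, values of Hif1a, Arnt and Arnt2, Fundc1, Map1lc3b, Mtor, Car3, Car12, Egln1, Egln3, Hif3a, Vhl, Hif1an, Cited2, Foxj1, Sftpa1, Cldn18, Vegfa, Slc2a1, Adm, Gapdh), and the 2 protein-coding genes of nearest profile to each called member. Members and lists were chosen with earlier results of these data known.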

Additional observations from a re-analysis of the deposited data

How the results depend on the processing

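The 9 fold changes were recomputed under filters on level, averaged probe sets, all probe sets, 3 rescalings, removal of the length trend, limma's trend with a robust prior, array weights, a replicate block, the level of Xist in the model, and without each array. The 6 called genes kept their sign in all 18 of these settings, and Ankrd37, which was not called, changed sign in 2. For the 6 this was largely fixed in advance, since their groups do not overlap and several settings leave the fold change as it is. Over the 6 fits without 1 array the members called ranged from 0 to 4, and all genes called from 2882 (without control replicate 3) to 6155, with 3141 when control replicate 1 was left out. The model with Xist, which nearly repeats the fit without control replicate 1, called 1 member and 2827 genes. With limma's trend and robust prior 3 members and 6021 genes passed. At an adjusted p under 0.01 there were 0 members and 2560 genes. At an unadjusted p under 0.05 limma gave 6 members and 9264 of all 24704 genes. No pairing by replicate number was seen: deviations of same-numbered arrays from their group means correlated at 0.062, −0.013 and 0.0038 over genes. Differently numbered arrays gave −0.11 to 0.11. With 3 arrays per group these values cannot show that the arrays were unpaired. With the replicate block 6082 genes and 4 members passed; P4ha2 (adjusted p = 0.060) and Pdk1 (0.059) were lost. Counts of list genes under each setting were added after the data were seen. Car9 is limited by its low signal.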
